A study of Mus musculus with 4 samples.

Results

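The windows described here are the gene windows of the mouse olfactory receptors and of the vomeronasal receptor families Vmn1r and Vmn2r, in a profile of the repressive histone mark H3K27me3 in alveolar macrophages. They were chosen by symbol alone, after the Entrez identifiers of the table had been matched to mouse symbols. Of 27095 windows, 1476 were receptors, made up of 1126 olfactory, 228 Vmn1r and 122 Vmn2r windows, and 17 of them carry a symbol that marks a pseudogene. A window is the gene with 3 kb on each side, and its value is the number of reads counted in it. Receptors of 1 family that lie at most 1 Mb apart were joined into clusters of at least 3 members. This gave 54 clusters, of which 35 are olfactory, 8 Vmn1r and 11 Vmn2r. The clusters hold 1441 receptors, and 35 lie outside them.

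Olfactory receptors are the G protein-coupled odorant receptors of the nose, and vomeronasal receptors detect pheromones and related cues in the vomeronasal organ. A mature olfactory neuron transcribes a single receptor gene from its repertoire, vomeronasal neurons 1 or a few, and other tissues transcribe very few of them. The genes sit in large tandem arrays that arose by duplication, so that neighbours resemble each other closely. In the olfactory epithelium their silent copies are packed mainly with methylated H3K9 and H4K20, whereas H3K27me3, the product of the Polycomb complex PRC2, marks silent developmental regulators such as the Hox genes in most cell types.

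H3K27me3 was mapped by Cut&Tag, in which a transposase tethered to an antibody tags the chromatin around the mark, in 100000 alveolar macrophages per library sorted from mouse lung. There were 2 wild-type and 2 Suz12 cKO libraries, given in the labels as biological replicates, and Suz12 is a core subunit of PRC2. All mice were lethally irradiated C57BL/6-Ly5.1 hosts; 90% of the marrow they were given was Ly5.2, of the genotype named, and in both groups 10% was Ly5.1 and wild type. The sources used here do not give the Cre driver, the age of the mice, the number of mice behind a library or whether Ly5.1 cells were sorted away. Total counts were 2592297 and 2142175 in wild type and 3331138 and 3567282 in cKO. The Suz12 window held 8 and 10 counts in wild type and 11 and 10 in cKO, which does not check the deletion, because the mark and not the transcript was measured. Marker windows bear on the cell type only loosely, since H3K27me3 is low at transcribed genes. The median window of 12 alveolar macrophage markers had 0.116 and 0.155 CPM per kb in wild type and cKO, against 0.767 and 1.06 for 5 T and NK cell markers, 2.03 and 2.36 for 3 endothelial, 2.27 and 2.08 for 3 epithelial and 3.59 and 4.06 for 3 fibroblast markers. For 3 B cell markers it was low too, at 0.140 and 0.0429.

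The promoters of 4 Vmn2r receptors show how alike neighbours in an array can be, and they belong to the 4 called receptors of a single Vmn2r array on chromosome 6, 2 in each direction. Each sequence is the 250 bases before the gene's start in RefSeq on build GRCm38.p6, whose coordinates are those of mm10. They lie at chr6:123650636-123650885 on the minus strand for Vmn2r22, at chr6:123702571-123702820 on the plus strand for Vmn2r23, at chr6:124024508-124024757 on the plus strand for Vmn2r26 and at chr6:124231785-124232034 on the minus strand for Vmn2r27. Capitals mark CpG dinucleotides.
Vmn2r22: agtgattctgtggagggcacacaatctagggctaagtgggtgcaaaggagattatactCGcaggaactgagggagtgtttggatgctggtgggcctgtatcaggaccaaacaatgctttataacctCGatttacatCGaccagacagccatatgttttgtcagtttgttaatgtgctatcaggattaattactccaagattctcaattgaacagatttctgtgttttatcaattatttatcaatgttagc
Vmn2r23: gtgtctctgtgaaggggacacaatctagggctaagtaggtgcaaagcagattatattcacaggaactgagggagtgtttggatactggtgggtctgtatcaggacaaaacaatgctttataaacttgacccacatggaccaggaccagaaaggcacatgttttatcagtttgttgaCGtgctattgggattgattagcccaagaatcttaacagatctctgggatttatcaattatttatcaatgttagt
Vmn2r26: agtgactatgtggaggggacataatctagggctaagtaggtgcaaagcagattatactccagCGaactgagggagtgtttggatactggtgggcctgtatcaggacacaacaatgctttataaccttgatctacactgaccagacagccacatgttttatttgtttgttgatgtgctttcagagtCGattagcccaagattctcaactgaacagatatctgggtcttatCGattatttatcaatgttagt
Vmn2r27: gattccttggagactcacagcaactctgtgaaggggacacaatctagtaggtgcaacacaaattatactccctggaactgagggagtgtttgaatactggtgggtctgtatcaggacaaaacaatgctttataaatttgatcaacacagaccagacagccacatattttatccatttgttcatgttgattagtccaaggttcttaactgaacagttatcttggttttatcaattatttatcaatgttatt
These promoters hold 3, 1, 3 and 0 CpGs in that order, and between 37.2% and 41.6% of their bases are G or C. The pair Vmn2r22 and Vmn2r26 is identical at 86.9% of aligned positions, and the least alike pair, Vmn2r23 and Vmn2r27, at 73.7%. The reads were 36 bases long. The sources used here do not say how reads that match several receptors were treated, so the split of counts between near-identical receptors is uncertain.

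Receptor promoters as a class are poor in G, C and CpG. RefSeq promoters of 300 bases, 250 before and 50 after the start, were found for 1260 of the 1476 receptors. The start is the annotated one, and whether transcription of a receptor begins there was not tested. Their median GC content was 35.7%, against 52.7% over all 27025 promoters. Their median CpG count was 1, against 7, and 31.0% of them held no CpG, against 5.78%. Only 3 receptor promoters (0.238%) reached 10 CpGs, against 43.9% of all promoters and 68.2% of the 22 Hox promoters found. The homeodomain core TAATTA, searched on both strands, was present in 16.7% of receptor promoters, with 18.7% among olfactory, 7.32% among Vmn1r and 17.4% among Vmn2r promoters, against 5.31% of all promoters. The palindromic Ebf motif, also searched on both strands, was present in 0.397% of receptor promoters and 0.914% of all. The homeodomain core holds only A and T, and the fixed bases of the Ebf motif are mostly G and C. Receptor promoters differ from all promoters in GC content, and promoters of equal GC content were not compared. Whether either motif is more or less frequent in receptor promoters than their base composition gives was not tested.

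Receptor windows carried little H3K27me3, though not the least in the genome. The level is given as CPM per kb, counts scaled to the library's size (CPM, with factors from the trimmed mean of M-values, TMM) and divided by window length. Summed over all 1476 receptors it was 0.450 and 0.488 in wild type and 0.438 and 0.462 in cKO. The same sum over all windows was 0.838 ± 0.0146 (SD, n = 2) in wild type and 0.869 ± 0.0139 in cKO, and over 39 Hox windows 10.4 ± 1.57 and 11.4 ± 0.344. Over 121 ribosomal protein and proteasome windows, genes that every cell transcribes, it was 0.162 ± 0.00346 and 0.148 ± 0.0137. The receptors thus lay between the Hox windows and these transcribed genes in all 4 libraries. All receptors together took 0.626% and 0.696% of the counts in wild type and 0.601% and 0.620% in cKO.

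The families differed in summed level. Olfactory windows stood at 0.505 ± 0.0293 CPM per kb in wild type (SD, n = 2) and 0.494 ± 0.0180 in cKO, Vmn1r windows at 0.400 ± 0.0136 and 0.380 ± 0.0143, and Vmn2r windows at 0.418 ± 0.0276 and 0.381 ± 0.0155. The olfactory sum was above both vomeronasal sums in each library. The Vmn2r sum was at or above the Vmn1r sum in each library, but their ranges overlapped. By the median window the order was not the same. Olfactory windows had 0.224 and 0.264 in wild type and 0.255 and 0.253 in cKO, and Vmn2r windows 0.203 and 0.268, and 0.239 and 0.260. Vmn1r windows were lowest in each library, at 0.169 and 0.214, and 0.221 and 0.211. Class I olfactory receptors, the older class also found in fish, were told from class II by the number in their older MOR names, which gave 125 of class I, 974 of class II and 27 without a class. Class I stood at 0.615 and 0.704 in wild type and 0.686 and 0.707 in cKO, and class II at 0.465 and 0.498 in wild type and 0.452 and 0.477 in cKO, so class I was above class II in every library. Other tandem gene families lay above or below the receptor families: the trace amine receptors (Taar) stood at 0.769 in wild type and 0.715 in cKO, the bitter taste receptors (Tas2r) at 0.180 and 0.206, the beta-defensins (Defb) at 1.03 and 0.933 and the keratin-associated proteins (Krtap) at 0.757 and 0.816.

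**Figure D1:**
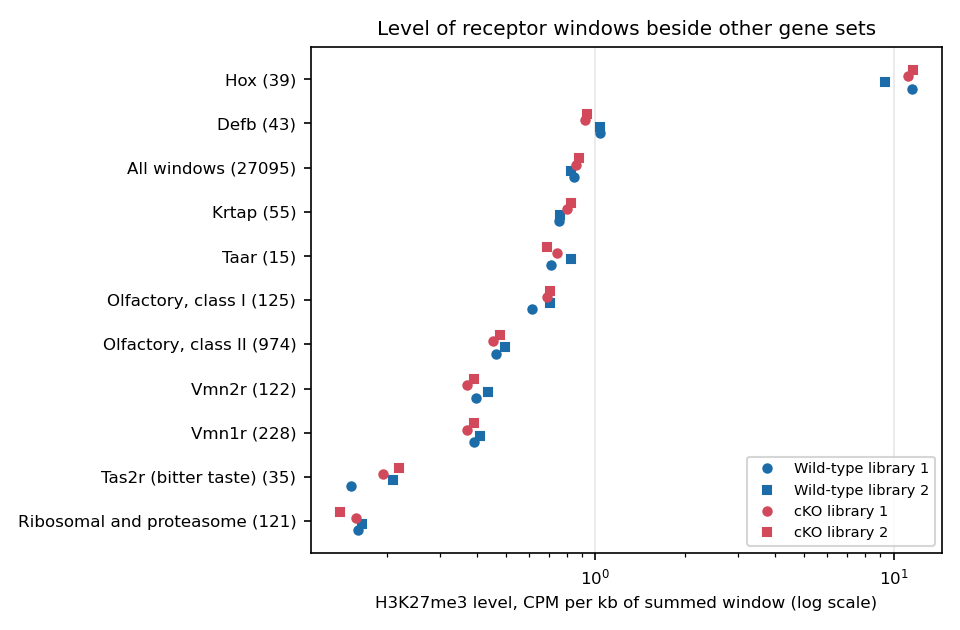
H3K27me3 level of receptor families and other gene sets, as CPM per kb of summed window on a log axis, with 1 point per library and the number of windows in brackets. Receptor families sit between 0.370 (Vmn1r, cKO) and 0.707 (class I olfactory receptors, cKO), above the ribosomal and proteasome windows and far below the Hox windows in every library.

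Sums are drawn up by a few windows, and the single receptor holds few reads. The median receptor had 23 counts over all 4 libraries together, with quartiles of 10 and 59 and a maximum of 914. The median window of the receptors stood at 0.224 and 0.264 CPM per kb in wild type and 0.224 and 0.252 in cKO, close to the median of all windows at 0.218 and 0.226 in wild type and 0.220 and 0.210 in cKO. By mean level, 801 receptors (54.3%) lay above the median of all windows, 21 (1.42%) in the top 10% and 229 (15.5%) below 0.0853 CPM per kb, the lower quartile of all windows. Between the 5th and the 95th percentile the receptors ran from 0.0420 to 1.49 CPM per kb.

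The level differed widely between clusters. Mean levels of the 54 clusters ran from 0.0864 to 2.22 CPM per kb, a 25.7-fold range, with a median of 0.559, and the cluster order was nearly the same in both genotypes (Spearman's rho 0.98 over 54 clusters, each compared with itself over the same windows). The highest was a group of 8 olfactory receptors on chromosome 1 (chr1:92479681-92621001), with 2.27 and 2.27 in wild type and 2.13 and 2.22 in cKO. The next, 12 olfactory receptors at chr13:21072349-21703965, had 1.69 and 1.79 in wild type and 1.71 and 1.80 in cKO. The lowest, 15 olfactory receptors at chr7:86268730-86695384, had 0.0391 and 0.0884 in wild type and 0.113 and 0.105 in cKO, from 12, 23, 44 and 43 counts. At 1 CPM per kb or more lay 10 clusters, all of them olfactory, and 3 of these were on chromosome 11.

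Large arrays were mostly low. The 22 clusters with at least 20 members held 1166 receptors and had a median level of 0.343 CPM per kb (0.126 to 1.43), against 0.707 (0.0864 to 2.22) for the 32 smaller ones. The largest, 227 olfactory receptors at chr2:85330967-90401674, had 0.149 and 0.181 in wild type and 0.176 and 0.199 in cKO. The class I array, 126 olfactory receptors at chr7:102476773-105369317 of which 121 are class I, had 0.629 and 0.718 in wild type and 0.700 and 0.714 in cKO. The largest Vmn1r array, 86 receptors at chr7:20101158-24055691, had 0.137 and 0.138 in wild type and 0.138 and 0.151 in cKO. The highest of the large arrays was a group of 24 olfactory receptors at chr11:58454915-59614225, with 1.41 and 1.41 in wild type and 1.39 and 1.49 in cKO. Over the 54 clusters, which share the libraries, the rank correlation of level with number of members was -0.44 and with members per Mb 0.22.

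**Figure D2:**
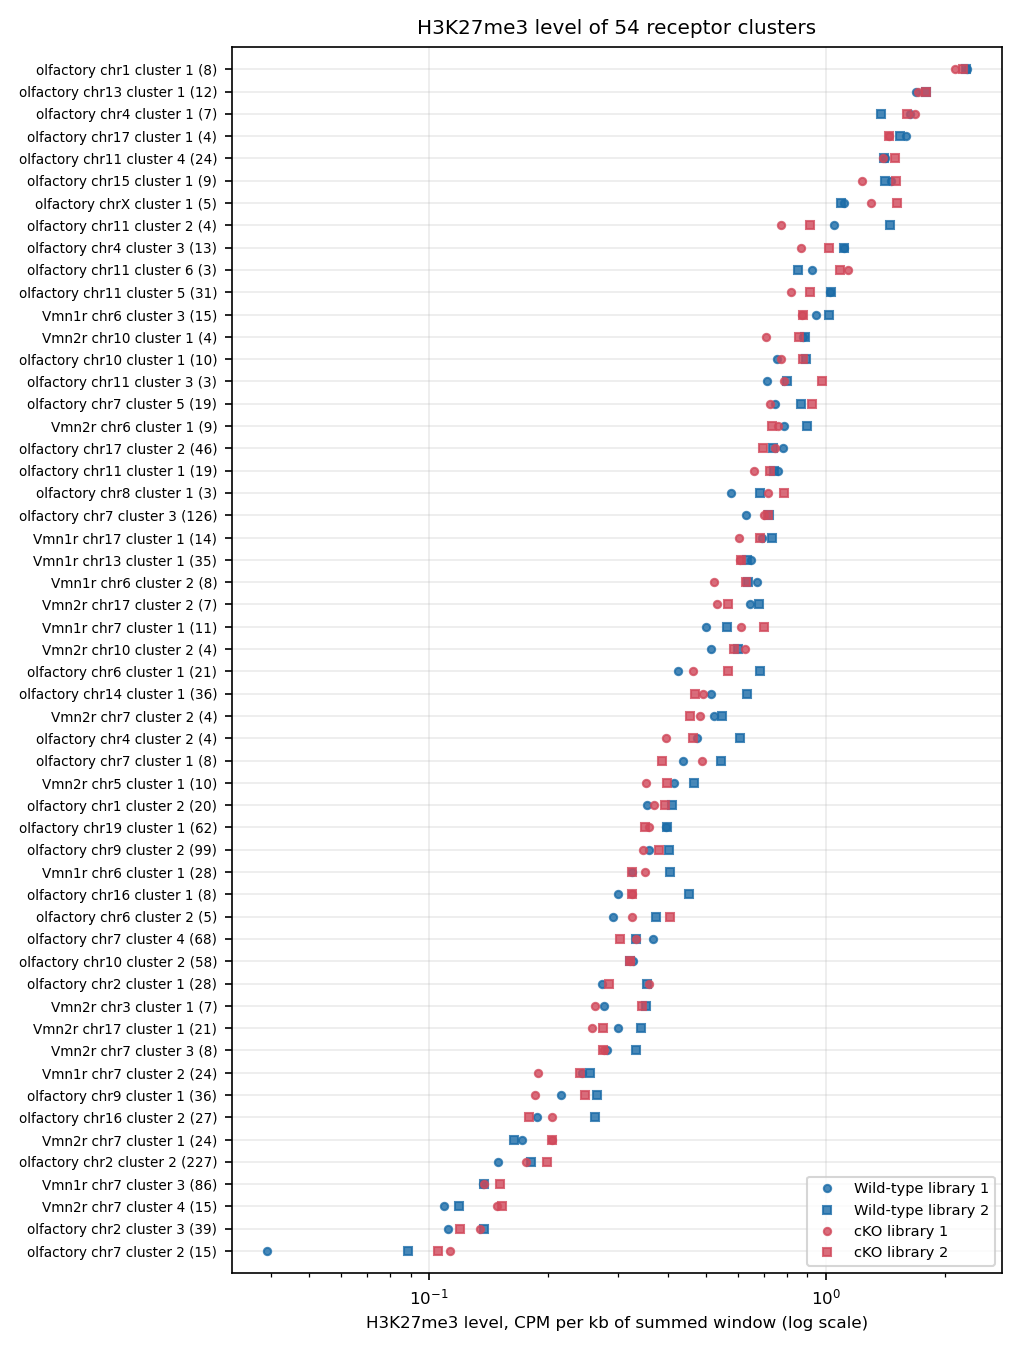
H3K27me3 level of each of the 54 receptor clusters as CPM per kb on a log axis, with 1 point per library, clusters numbered along each chromosome and the number of members in brackets. The 4 points of a cluster lie close together compared with the 25.7-fold range over clusters, and the widest spread is in the lowest cluster, from 0.0391 to 0.113.

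Genes beside a cluster did not stand at the level of the cluster. Windows of other genes within 500 kb outside the cluster ends had a median of 0.711 CPM per kb over the 54 clusters and lay above their cluster in 38 of them. The rank correlation of cluster level with the level of these flanks was 0.18. Beside the 227 receptors of chromosome 2, for instance, the flanks stood at 1.58 and 1.42 in wild type and 1.60 and 1.61 in cKO.

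Within large arrays the end members stood higher than the inner ones. In the 22 large clusters, the 3 members at each end of the olfactory arrays (96 in all) had 0.840 ± 0.0584 CPM per kb in wild type (SD, n = 2) and 0.780 ± 0.0184 in cKO, against 0.373 ± 0.0240 and 0.368 ± 0.00829 for 852 inner members. These are sums, and the olfactory ends include Olfr692, the last member of the class I array. It had 10.4 and 10.2 CPM per kb in wild type and 12.9 and 11.5 in cKO, and 58.8% of its window overlaps another. Its weight in the sum was not tested. End and inner members had 0.632 ± 0.00481 and 0.237 ± 0.00917 in Vmn1r arrays in wild type, and 0.518 ± 0.0287 and 0.241 ± 0.00398 in cKO. In Vmn2r arrays they had 0.377 ± 0.0158 and 0.195 ± 0.0255 in wild type, and 0.333 ± 0.0180 and 0.197 ± 0.00172 in cKO. The end members were above the inner ones in 18 of the 22 clusters, and the 2 positions did not overlap over the 4 libraries in any family. Isolated receptors were also higher than clustered ones: the median window of the 35 isolated receptors had 0.500 and 0.595 in wild type and 0.398 and 0.464 in cKO, against 0.223 and 0.264, and 0.221 and 0.252, for the clustered.

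Over all receptors the level went up with the GC content of the promoter. With the 1260 receptors in equal bins of promoter GC content, 315 in each, the summed level was 0.239 ± 0.0163, 0.323 ± 0.0367, 0.420 ± 0.0214 and 0.760 ± 0.0225 CPM per kb in wild type (SD, n = 2), from the lowest to the highest bin. In cKO it was 0.232 ± 0.00913, 0.314 ± 0.00991, 0.400 ± 0.0149 and 0.745 ± 0.0268. The order of the bins was the same in every library. In the Vmn1r family the 3 lower bins did not go up (0.348, 0.337 and 0.334 in wild type) and only the highest stood apart, at 0.792. Over the 1260 receptors the rank correlation of level with promoter GC was 0.44 and with CpG count 0.09, and over the 54 clusters 0.56 and 0.27. These points share libraries, and the part of base composition in the sequencing itself was not tested. In the Vmn1r family, receptors with much shared sequence had low counts. At least 50% of the 36-base words of the promoter recurred in another receptor's promoter for 74 Vmn1r genes, and these had median counts of 1 and 1 in wild type and 2 and 3 in cKO, against 6, 5, 8 and 7 for 85 Vmn1r genes with no shared word. The 46 Vmn1r genes with some sharing below that were not lower (8, 6.5, 7.5 and 7), nor were 20 olfactory receptors with at least 50% shared (4, 7, 6.5 and 6.5) beside 735 with none (4, 4, 6 and 6). In the Vmn2r family 28 genes with at least 50% shared had lower counts (12.5, 12, 18.5 and 21) than 26 with none (19, 19, 19.5 and 23.5). Per kb of window these Vmn2r medians were 0.189, 0.198, 0.245 and 0.226 CPM against 0.194, 0.231, 0.193 and 0.228, which is not lower in every library. In the olfactory family 21.8% of promoters shared at least 1 such word, in Vmn1r 58.5% and in Vmn2r 77.4%.

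**Figure D3:**
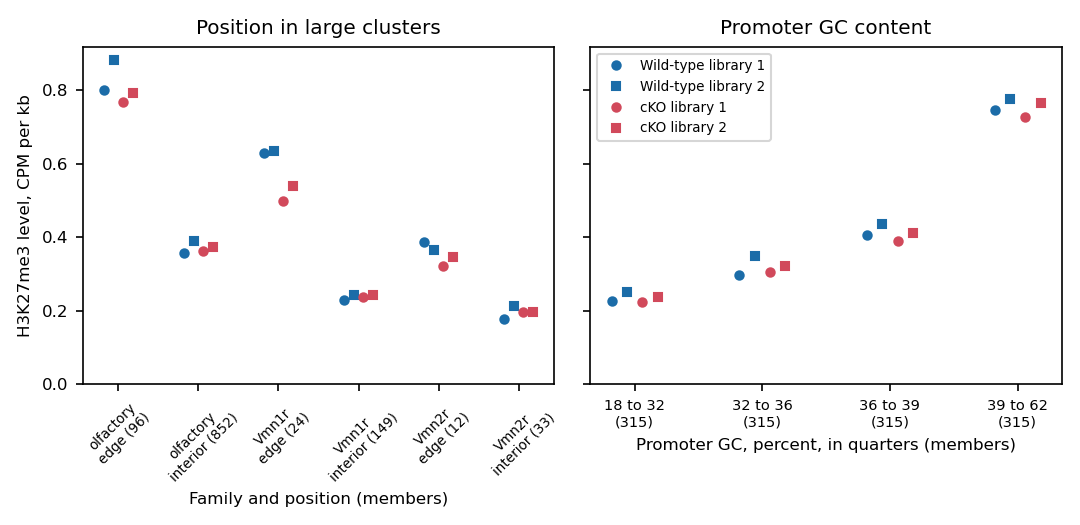
Left, summed H3K27me3 level in CPM per kb of the 3 members at each end of large arrays and of the inner members, by family. Right, the level of 1260 receptors in 4 equal bins of promoter GC content. Each point is 1 library. End members lie above inner members in all 3 families and the level goes up from 0.239 to 0.760 in wild type over the bins.

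The question of the series is how loss of Suz12 changes H3K27me3, and for the receptors summed as a whole the genotypes overlapped. Every scaling used here sets a window against other windows of the same library. A change shared by all windows would therefore not be seen, and the comparisons between genotypes are of relative levels only. The log2 ratio of cKO over wild type was -0.06 for all receptors, -0.03 for olfactory, -0.08 for Vmn1r and -0.13 for Vmn2r windows, and with scaling to the ribosomal and proteasome windows these became 0.078, 0.106, 0.062 and 0.0043, so the sign depends on the scaling. That scaling moved the median of all windows by 0.13. Wild-type and cKO libraries overlapped for the olfactory family at 0.484 and 0.525 against 0.481 and 0.506 CPM per kb. For Vmn1r they were 0.391 and 0.410 against 0.370 and 0.390, and for Vmn2r 0.399 and 0.438 against 0.370 and 0.392, so that both vomeronasal families were lower in cKO without overlap but by a margin of less than the gap between replicates. No test was made on these sums, and an exact permutation test of 2 against 2 libraries could not reach the threshold.

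Of the 54 clusters, none was called as changed. Each cluster's summed counts were tested beside all other windows with edgeR's quasi-likelihood test, and a Benjamini-Hochberg adjusted p below 0.05 over all 16269 features was called gained (higher in cKO) or lost (lower). Over all features 4.62% were gained and 1.98% lost, against 0 gained and 0 lost of 54 clusters. DESeq2 also called 0 gained and 0 lost, against 3.47% and 0.579% of features. At an unadjusted edgeR p below 0.05 there were 4 higher and 5 lower, 9 of 54 against 18.8% of all features. The fold changes were small: their median was -0.07 on the log2 scale, 21 were positive and 33 negative, and the median SE was 0.13. In 7 clusters both cKO values lay above both wild-type values and in 22 below, together 53.7% of clusters, against 47.6% of all tested single windows. Clusters are sums over several windows, so these shares are not of like features, and the split by direction has no background here.

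The cluster nearest to the threshold was a group of 4 olfactory receptors at chr11:50969020-51027945, with 1.05 and 1.45 CPM per kb in wild type and 0.772 and 0.916 in cKO. Its log2 fold change was -0.55 ± 0.21 (SE) with an edgeR adjusted p of 0.102, and without wild-type replicate 1 the cluster was called lost, at -0.77 and an adjusted p of 0.0420. The Vmn2r array at chr17:17703941-20596259, with 21 members, had 0.299 and 0.342 in wild type and 0.257 and 0.275 in cKO. Its fold change was -0.26 ± 0.10, with an edgeR adjusted p of 0.109 that became 0.0361 without wild-type replicate 1 and 0.0255 with scaling to library totals. The 31 olfactory receptors at chr11:73350859-74365609 had 1.027 and 1.035 in wild type and 0.816 and 0.914 in cKO. Their fold change was -0.25 ± 0.10 with an edgeR adjusted p of 0.121. That p became 0.0273 with library totals, 0.0153 with upper-quartile factors and 0.0147 under a minimum mean of 50 counts. The 36 olfactory receptors at chr14:49894258-52495695 had 0.513 and 0.633 in wild type and 0.491 and 0.469 in cKO. Their fold change was -0.25 ± 0.11 with an edgeR adjusted p of 0.187, and -0.39 without wild-type replicate 1. The p was 0.0435 with upper-quartile factors and 0.0403 under that minimum. The group of 4 receptors was also called lost there (0.0399, edgeR).

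Among the least marked arrays the estimates leaned the other way. All 6 clusters below 0.2 CPM per kb, with 406 receptors, had positive fold changes, against 15 of the 48 above it. That level was chosen after the values were seen, and the signs depend on the scaling: positive were 5 of 6 and 9 of 48 with library totals, 4 and 8 with upper-quartile factors, and 6 and 26 with scaling to the ribosomal and proteasome windows. Without wild-type replicate 1 they were 5 and 9, without cKO replicate 1 5 and 20, without wild-type replicate 2 6 and 23, and without cKO replicate 2 6 and 10. The lowest cluster, on chromosome 7, had 0.81 ± 0.36 with an edgeR adjusted p of 0.185, and the 227 receptors of chromosome 2 had 0.19 ± 0.10 with 0.288. Both were called gained without wild-type replicate 2, at 1.48 with an adjusted p of 0.0465 and at 0.34 with 0.0334. The Vmn2r array at chr7:84940169-87037968, with 15 members, had 0.109 and 0.119 in wild type and 0.148 and 0.153 in cKO, and its fold change of 0.40 ± 0.16 had an adjusted p of 0.123. The Vmn2r array at chr7:7212996-10176286, with 24 members, had 0.172 and 0.164 against 0.205 and 0.204, at 0.28 ± 0.12 and 0.139. The rest had estimates smaller than their SE. They were 0.07 ± 0.13 for the 86 Vmn1r receptors at chr7:20101158-24055691 and 0.03 ± 0.18 for 39 olfactory receptors at chr2:111230853-112157007. Mean levels of the 6 clusters ran from 0.0864 to 0.186 CPM per kb. That is near the ribosomal and proteasome windows, at 0.162 in wild type and 0.148 in cKO. All 6 clusters lie on chromosomes 2 and 7. The lowest lies within the span of the Vmn2r array at chr7:84940169-87037968, so the clusters are not all separate places. The fold changes of the flanks did not follow those of their clusters (rank correlation 0.04 over 54 clusters).

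**Figure D4:**
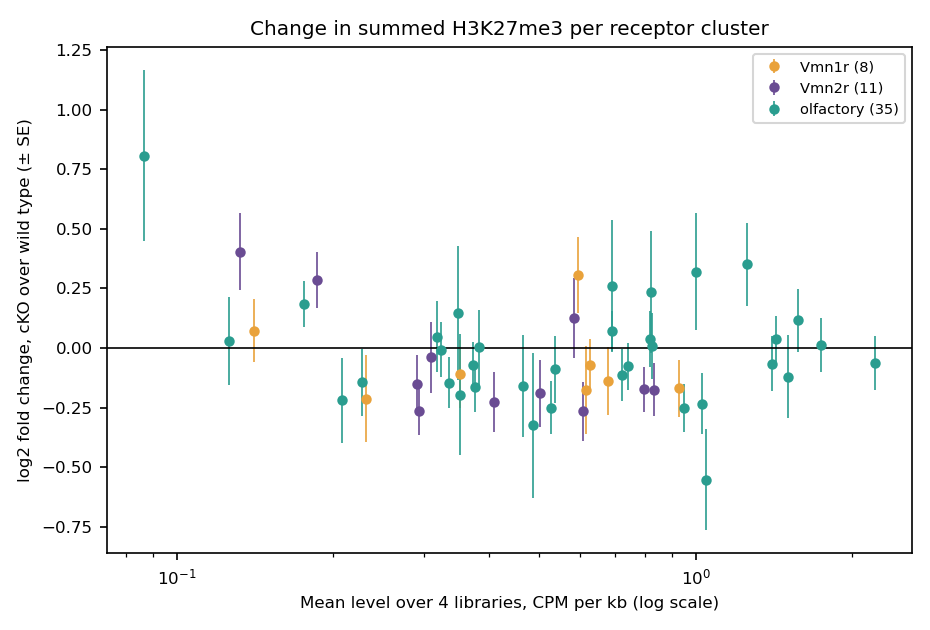
Log2 fold change of summed H3K27me3, cKO over wild type, of each receptor cluster with its SE, against the mean level of the cluster over the 4 libraries in CPM per kb on a log axis. No cluster passed the test over all features. The 6 clusters below 0.2 CPM per kb all have estimates above 0, some with an SE that reaches below it.

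Window by window, 557 of the 1476 receptors held enough reads to be tested (37.7%, against 61.8% of all windows), and 919 were not tested. Over all tested windows 4.46% were gained and 1.96% lost by edgeR at an adjusted p below 0.05, and of the tested receptors 2 were gained (0.359%) and 6 lost (1.08%). The shares were below the background in both directions, but the median SE of a receptor's log2 fold change was 0.44, against 0.29 for all tested windows, so a change of a given size was measured less precisely in receptors. At an unadjusted p below 0.05 there were 17 higher and 35 lower receptors, 9.34% against 18.5% of all windows. The median log2 fold change was -0.07, against -0.01 over all, and 252 of the 557 estimates were positive (45.2%, against 48.3% of all tested windows). The direction depended on the count filter. With none, 745 of 1463 receptors were positive, with a median of 0.02, and under a minimum mean of 50 counts 15 of 54 were, with a median of -0.27. Genotypes did not overlap for 224 receptors (40.2%), against 47.6% of all tested windows. DESeq2 gave 127 of the receptors an adjusted p and called 1 gained, Vmn2r27, and 0 lost, against 3.38% and 0.541% of all windows with one.

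The Vmn2r family held 6 of the 8 called receptors. Of 103 tested Vmn2r windows, 2 were gained (1.94%) and 4 lost (3.88%), against 4.46% and 1.96% of all tested windows. Together that is 5.83% called, against 6.42% of all. Of 63 Vmn1r windows 0 were gained and 1 lost (1.59%), and of 391 olfactory windows 0 and 1 (0.256%). At an unadjusted edgeR p below 0.05 lay 18.45% of Vmn2r, 6.35% of Vmn1r and 7.42% of olfactory windows, against 18.54% of all. With both directions together the Vmn2r shares were thus near those of all windows. By direction the gained share was smaller and the lost share larger, from 2 and 4 windows. Vmn2r genes have several exons and a median window of 29.7 kb, against 6.92 kb for Vmn1r and 6.95 kb for olfactory genes, and so hold more reads, with medians of 72.5, 17 and 21 counts over the 4 libraries. Of 48 tested class I olfactory receptors edgeR called 0 gained and 0 lost (against 4.46% and 1.96% of all windows), and DESeq2 0. At an unadjusted p below 0.05 there were 2 higher and 3 lower, 10.4% against 18.5% of all windows. Their median log2 fold change was 0.13, with 32 positive (66.7%), and that of 331 class II receptors -0.10, with 140 positive (42.3%), against 48.3% of all tested windows. The difference between the classes was not tested.

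On chromosome 6 a single array of 9 Vmn2r receptors (chr6:123308333-124231784) held 2 gained and 2 lost receptors, with Vmn2r24 and Vmn2r25, which were not called, between the pairs. None of its windows overlaps another. At one end, Vmn2r27 had 14.7 and 21.1 CPM in wild type and 37.6 and 44.1 in cKO, both cKO libraries above both wild-type ones. It rose by a log2 fold change of 1.21 ± 0.22 (SE), with an edgeR adjusted p of 6.27e-06, and it was called under all 13 alternatives tried, DESeq2 and each left-out library included. Its neighbour Vmn2r26 had 14.4 and 16.0 CPM in wild type and 33.3 and 26.3 in cKO, a gain of 0.97 ± 0.24 with an adjusted p of 0.00316. Without wild-type replicate 1 its p was 0.0559 and without cKO replicate 1 0.118, and DESeq2 gave 0.105.

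The lost pair lies farther in. Vmn2r23 had 65.5 and 58.6 CPM in wild type and 44.6 and 34.5 in cKO, with no overlap. It fell by 0.66 ± 0.16 on the log2 scale, with an edgeR adjusted p of 0.00278. Without wild-type replicate 1 the p was 0.0866 and without cKO replicate 2 0.324. DESeq2 gave 0.117. Vmn2r22 had 55.1 and 64.6 in wild type and 36.4 and 46.7 in cKO. It fell by 0.52 ± 0.16 with an edgeR adjusted p of 0.0311, which became 0.343 without wild-type replicate 2, 0.468 without cKO replicate 1 and 0.0523 without cKO replicate 2. It was 0.0554 with no filter on low counts, and DESeq2 gave 0.317. With scaling to the ribosomal and proteasome windows neither Vmn2r22 (adjusted p 0.361) nor Vmn2r23 (0.137) passed, while Vmn2r26 and Vmn2r27 did.

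The level varied along this array. In wild type Vmn2r19 and Vmn2r20 stood at 0.228 and 0.296 CPM per kb, Vmn2r21, Vmn2r22 and Vmn2r23 at 1.75, 1.28 and 1.37, Vmn2r24 and Vmn2r25 at 0.942 and 0.654, and Vmn2r26 and Vmn2r27 at 0.351 and 0.388. In cKO the 9 receptors stood, in the same order, at 0.100, 0.382, 1.35, 0.886, 0.871, 0.771, 0.486, 0.689 and 0.885. No test was made of the pattern along the array. The other 5 members did not pass the test: Vmn2r19 had a log2 fold change of -1.17 (adjusted p 0.150), Vmn2r20 0.38 (0.566), Vmn2r21 -0.37 (0.0952), Vmn2r24 -0.29 (0.438) and Vmn2r25 -0.43 (0.353), all by edgeR. Of these, Vmn2r19, Vmn2r21, Vmn2r24 and Vmn2r25 were nonetheless lower in both cKO libraries than in both wild-type ones, like the lost pair. Vmn2r20 overlapped. Over all tested windows the genotypes did not overlap in 47.6%. Vmn2r21 was called lost without wild-type replicate 1 (adjusted p 0.0131), with library totals (0.0464), with upper-quartile factors (0.0439) and under a minimum mean of 50 counts (0.0203). The array's sum had a fold change of -0.17 ± 0.10 with an adjusted p of 0.320 (edgeR), and it adds up receptors of both directions. The next gene beyond Vmn2r27 is Cd163, a scavenger receptor gene of macrophages, with 0.329 and 0.388 CPM per kb in wild type and 0.595 and 0.614 in cKO, a fold change of 0.76 ± 0.29 that did not pass (edgeR adjusted p 0.0983). On the other side lie C-type lectin genes, of which Clec4e had 0.0826 and 0.163 in wild type and 0.0868 and 0.145 in cKO. Clec4d had 0.202 and 0.167 against 0.0319 and 0.122, and Clec4n 0.184 and 0.178 against 0.0791 and 0.126, both lower in cKO without overlap. Clec4d and Clec4e held too few reads to be tested, and Clec4n did not pass (-0.80, edgeR adjusted p 0.539). The promoters printed above do not divide by direction: the lost Vmn2r22 is closer to the gained Vmn2r26 (86.9% identical) than to the lost Vmn2r23 (82.8%).

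**Figure D5:**
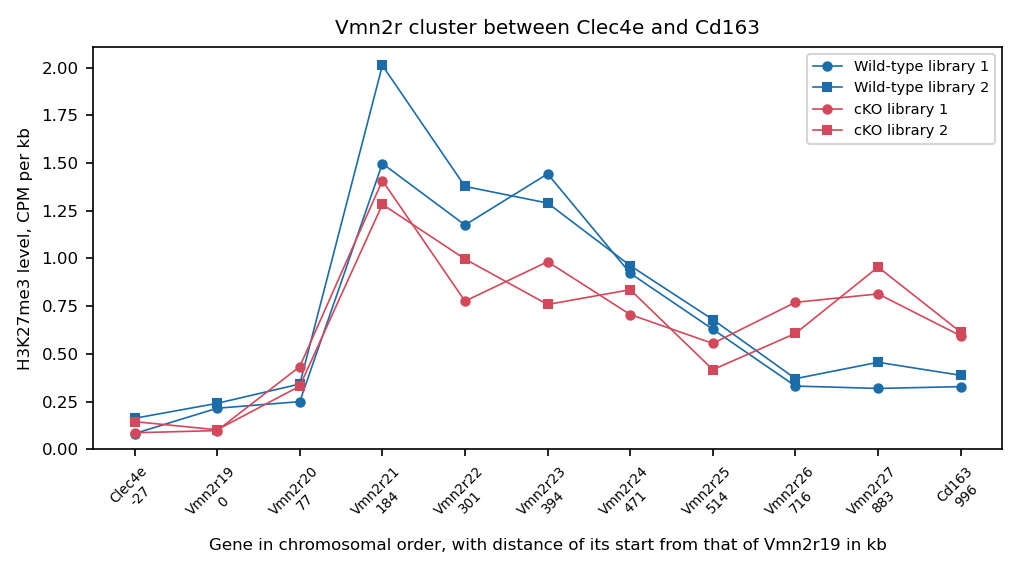
H3K27me3 level, in CPM per kb, of the 9 Vmn2r receptors of chromosome 6 and the genes beside them, in chromosomal order with distances in kb, with 1 line per library. Vmn2r19 and the run from Vmn2r21 to Vmn2r25 are lower in both cKO libraries than in both wild-type ones. Vmn2r26, Vmn2r27 and Cd163 are higher, and Vmn2r20 overlaps.

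The other 2 lost Vmn2r receptors lie next to each other on chromosome 17. Vmn2r92 (chr17:18151930-18185178) had 24.4 and 24.3 CPM in wild type and 10.7 and 15.2 in cKO and fell by 0.91 ± 0.26 on the log2 scale (edgeR adjusted p 0.0157). Vmn2r94 (chr17:18243570-18285259) had 20.9 and 33.9 in wild type and 16.8 and 13.7 in cKO and fell by 0.83 ± 0.25 (0.0213). In both, wild type and cKO did not overlap. Their neighbours had estimates of -0.24 (Vmn2r91), -0.51 (Vmn2r93) and -0.70 (Vmn2r95), with edgeR adjusted p of 0.602, 0.386 and 0.158, and Vmn2r96, farther along, 0.46 (0.668). The calls depended on single libraries. For Vmn2r92 the edgeR adjusted p was 0.0866 without wild-type replicate 1, 0.0809 without wild-type replicate 2 and 0.257 without cKO replicate 1. For Vmn2r94 it was 0.580 without wild-type replicate 2 and 0.294 without cKO replicate 2. DESeq2 gave 0.219 and 0.274, and scaling to the ribosomal and proteasome windows 0.100 and 0.126.

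The lost olfactory and Vmn1r windows rest on few reads. Olfr722, a class II receptor at chr14:49894258-49901941 and the outermost member of its array, had 19 and 24 counts in wild type and 8 and 9 in cKO, or 7.37, 11.0, 2.45 and 2.63 CPM. It fell by 1.82 ± 0.51 on the log2 scale with an edgeR adjusted p of 0.0100, and the p was 0.290 without wild-type replicate 2, 0.0909 without cKO replicate 1 and 0.105 without cKO replicate 2. Vmn1r38 (chr6:66776222-66777130) had 19 and 11 counts in wild type and 4 and 5 in cKO. It fell by 2.18 ± 0.64 with an edgeR adjusted p of 0.0171, and leaving out any of the 4 libraries ended the call: the p was 0.418 without wild-type replicate 1, 0.108 without wild-type replicate 2, 0.196 without cKO replicate 1 and 0.206 without cKO replicate 2. DESeq2 gave neither gene an adjusted p.

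None of the most marked receptors named here passed the test between genotypes. Among windows with little overlap, Olfr95 was the highest olfactory receptor, with 7.38 and 5.41 CPM per kb in wild type and 6.79 and 7.07 in cKO (edgeR adjusted p 0.807). It was followed by Olfr1359, with 4.02 and 2.31 against 4.23 and 3.79 (0.490), and by the class I array's Olfr691, with 3.28 and 3.94 against 4.08 and 2.72 (0.905). Genotypes overlapped in these 3 genes. In the Vmn1r family Vmn1r41 led with 2.35 and 2.27 against 1.39 and 1.96 (0.248), before Vmn1r235 with 2.02 and 1.74 against 1.96 and 1.97 (0.947) and Vmn1r210 with 1.29 and 1.99 against 1.68 and 2.11 (0.774). The isolated Vmn2r125 on chromosome 4 led the Vmn2r family, with 2.50 and 2.61 against 1.78 and 1.78. Its log2 fold change of -0.52 ± 0.19 did not pass by edgeR (0.0757), but it was called lost with library totals (0.0462), with upper-quartile factors (0.0372) and under a minimum mean of 50 counts (0.0229). Vmn2r9 had 1.69 and 1.38 against 1.16 and 1.09 (0.305), and Vmn2r21 is described above. A higher value than any of these belongs to Olfr692, with 10.4 and 10.2 CPM per kb in wild type and 12.9 and 11.5 in cKO, but 58.8% of its window overlaps another window.

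Receptors known for roles outside the nose did not pass the test either. Olfr2, the receptor for octanal that is also described in vascular macrophages, had 14.4 and 11.9 CPM in wild type and 7.95 and 5.84 in cKO. The genotypes did not overlap, and the log2 fold change was -0.93 ± 0.36 with an edgeR adjusted p of 0.105. Olfr78, a receptor for short-chain fatty acids found in kidney and carotid body, had 20.2 and 23.4 against 18.7 and 18.1 CPM (-0.24, adjusted p 0.677 by edgeR). Its neighbour in the class I array, Olfr558, had 33.0 and 46.3 against 45.3 and 41.5 (0.14, 0.740), with overlap between genotypes. Overlap with other windows covers 28.1% of the Olfr78 window and 48.0% of that of Olfr558. Olfr544, a receptor for azelaic acid, had 7.37 and 6.41 against 5.20 and 7.59 (-0.11, 0.937), also overlapping. Olfr16, described in muscle and sperm, had only 4 and 0 counts in wild type and 3 and 7 in cKO and was not tested.

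Genes that act with the receptors ranged from 0 to 21.5 CPM per kb by mean level, and of 34 such genes 23 lay above the summed level of the receptors (0.460) and 11 below it. The median window of these genes of olfactory and vomeronasal signalling and receptor choice had 1.93 ± 0.0757 CPM per kb in wild type (SD, n = 2) and 1.99 ± 0.0257 in cKO. Of 33 tested, edgeR called 0 gained and 0 lost (against 4.46% and 1.96% of all windows), and DESeq2 0. At an unadjusted p below 0.05 there were 3 higher and 2 lower, 15.2% against 18.5% of all windows. Lhx2, a homeodomain factor required for olfactory receptor expression, had 20.4 ± 3.07 in wild type and 22.2 ± 0.176 in cKO (log2 fold change 0.12, edgeR adjusted p 0.501). Without wild-type replicate 1 Lhx2 was called gained, at 0.29 with an adjusted p of 0.0369. Cnga2, the olfactory cyclic nucleotide-gated channel, had 4.71 ± 0.545 and 4.04 ± 0.782 (-0.23, 0.316), and Gnal, the olfactory G protein alpha subunit, 2.94 ± 0.0982 and 2.98 ± 0.00127 (0.02, 0.943). Ebf1, a factor of olfactory neurons and B cells, had 1.12 ± 0.0331 and 1.16 ± 0.0338 (0.05, 0.835). Adcy3, the adenylyl cyclase of olfactory cilia, was among the 11 with 0.179 ± 0.0175 and 0.109 ± 0.00872 (-0.71, 0.199), as was Trpc2, the channel of vomeronasal neurons, with 0.112 ± 0.0536 and 0.215 ± 0.0448 (0.97, 0.244). Broadly expressed genes of the list were low too, such as the chromatin factor Bptf at 0.0998 and 0.0690 and the G protein subunit Gnb1 at 0.107 and 0.0650. Omp, the olfactory marker protein, was at 0 in all 4 libraries, and its window lies wholly within other windows.

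Some receptors could not be measured. No read was counted in any library for 13 receptors, and 6 of these lie wholly within other windows, as do 16 receptors in all. At least 10% of the window is shared for 101 receptors, and 1329 share none. Of all receptors, 12.9% and 12.2% were at 0 in wild type and 6.17% and 6.98% in the deeper cKO libraries, so at this depth a 0 in 1 library does not show that the mark is absent.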

How the data were processed

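The authors deposited whole-number counts per gene window for 4 libraries, with the window length in bp, and per the submitters' processing notes used featureCounts and mm10. The sources used here do not give the aligner, the counting options or the treatment of duplicate and multiply matching reads. Symbols and positions came from the RefSeq table of build GRCm38.p6, in which 25204 of 27095 identifiers (93.0%) were found, and the others held 1.91% of the counts. The deposited length equals the gene span plus 6000 bp for 1331 receptors. Samples were grouped by their titles.

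Genotypes were compared with edgeR 4.0.16 under R 4.3.3 (TMM, filterByExpr, quasi-likelihood test, Benjamini-Hochberg over all features), window by window and with cluster members replaced by their sum, and the scripts were tested on simulated data. The SE of a fold change was taken as its size over the square root of F. The alternatives were other scalings and filters, DESeq2 1.42.0, a replicate block, left-out libraries and other cluster definitions. Replicate numbers were shared between genotypes, but the correlation of same-numbered deviations was 0.00844 over 16752 windows, so the samples were not treated as paired.

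Members and lists were chosen with earlier results of these data known. Genes named are the called receptors, the 3 highest per family (at least 10 counts, under 10% overlapped), receptors known outside the nose, set signalling genes, clusters of at least 20 members and genes beside them. Other clusters and genes were picked after their values were seen.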

Additional observations from a re-analysis of the deposited data

How the results depend on the processing

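The 2 gained and 6 lost receptors became 1 and 0 with DESeq2, 3 and 2 with scaling to the ribosomal and proteasome windows, and 2 and 8 with library totals and with upper-quartile factors. Over all windows 747 gained and 329 lost became 325 and 52, 614 and 89, 603 and 467, and 494 and 519 in that order. Without 1 library at a time, with the lone library of a genotype assumed to vary like the other genotype's, they ran from 1 to 3 gained and from 1 to 4 lost. The 0 gained and 0 lost clusters became 2 lost with library totals (2.87% of all features lost), 3 with upper-quartile factors (3.4%) and 4 under a minimum mean of 50 counts (4.99%), and without 1 library from 0 to 2 gained (2 without wild-type replicate 2, where 3.14% of all features were gained) and from 0 to 3 lost (3 without wild-type replicate 1, where 1.12% were lost). Log2 ratios of family sums moved beyond their spread with upper-quartile factors, to -0.15 for all receptors, -0.12 for olfactory, -0.16 for Vmn1r and -0.22 for Vmn2r, and with scaling to the ribosomal and proteasome windows, to 0.078, 0.106, 0.062 and 0.0043, and for Vmn1r to -0.13 with library totals. The causes were not tested. Without 1 library these ratios ran from -0.12 to -0.00 for all receptors, -0.09 to 0.03 for olfactory, -0.11 to -0.04 for Vmn1r and -0.20 to -0.07 for Vmn2r. Of the values of named genes under alternatives, 295 stayed on their side of the threshold, 29 lost their call and 8 gained one, and of the cluster values 683 stayed and 14 gained a call, with no called value changing sign. With the replicate block 2 receptors were gained and 6 lost, and 0 clusters were called. Few reads per receptor limit what can be seen: most single receptors could not be tested, and only summed clusters reach a median SE of 0.13.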
